A study of Mus musculus with 18 samples.

Results

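The 30 genes described here encode subunits of glutamate and GABA receptors: 4 AMPA, 6 NMDA and 5 kainate receptor subunits, 6 metabotropic glutamate receptors, 6 alpha and beta subunits and 3 gamma and delta subunits of the GABA-A receptor. They were chosen by name, as a gauge of how much neuronal tissue the dissections held, with earlier results of these data known. Each gene took the median of the log2 values of the probe sets annotated to it alone. All 30 were among the 20352 genes measured in the series, with 8 to 24 probe sets each, and all 30 were among the 16281 genes left after the dimmest 20% were set aside.

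The arrays came from the caudal corpus callosum, a tract of white matter, of C57BL/6 mice that were wild type (WT) or Trem2 knockout (KO, labelled TREM2-/-); TREM2 is a receptor of microglia. Chow with 0.2% cuprizone (CPZ), which chelates copper and brings on loss of oligodendrocytes and of their myelin, was given to every group, so no group without CPZ enters these comparisons. The stage label reads 6 or 12 weeks: the sample descriptions word it as an age, whereas the treatment protocol counts the same numbers among the feeding times, and the labels do not settle which is meant. WT mice gave 4 arrays at 6 weeks and 5 at 12 weeks, and KO mice gave 3 and 6. Nothing in the labels ties each array to its own mouse, so the p-values here rest on a spread between samples that may be technical.

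Glutamate and GABA carry most of the fast excitatory and inhibitory signalling of the brain. AMPA, NMDA and kainate receptors are ion channels opened by glutamate, metabotropic glutamate receptors act through G proteins, and GABA-A receptors are chloride channels built from alpha, beta and further subunits such as gamma or delta. Most of these transcripts are made by neurons, whose cell bodies lie outside white matter, although some, among them Grm3, Gabra2 and Gabrg1, are also known from glia.

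Trem2 itself followed the labels: the lowest WT array read 6.44 against 6.05 for the highest KO array at 6 weeks, and 6.83 against 5.59 at 12 weeks. Markers of neurons (11 genes), astrocytes (10) and myelin (11) all passed the same filter on low values. Array medians lay between 5.26 and 5.41. At 6 weeks 2 arrays stood apart, WT replicate 4 and KO replicate 2, which had the lowest weights of all 18 arrays when limma estimated array quality (0.503 and 0.446). They also had the lowest pan-neuronal marker scores, -0.97 and -1.28, a score being the mean over genes of log2 values centred on each gene.

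Most receptor subunits, though not every family, were low in these 2 arrays. In WT replicate 4, 20 of the 30 members had the lowest value of their group, with a median difference of -0.56 from the mean of the other arrays of the group. In KO replicate 2, 22 of 30 were lowest and the median difference was -1.004. These counts come from groups of 4 and 3 arrays, so they are not directly comparable. The share of all genes lowest in each array was not counted. All 4 AMPA subunits were lowest in both arrays, and all 6 NMDA subunits were lowest in KO replicate 2. Of 6 GABA-A alpha and beta subunits, 5 were lowest in each array. Of 6 metabotropic receptors, 2 were lowest and 3 highest in WT replicate 4, and 4 were lowest in KO replicate 2. Of 5 kainate subunits, 4 were lowest in WT replicate 4 and 1 in KO replicate 2. Of 3 GABA-A gamma and delta subunits, 1 was lowest in WT replicate 4 and 2 in KO replicate 2. Grin2a (chromosome 16), an NMDA subunit of mature synapses, read 8.33, 8.19, 7.35 and 3.70 in the 4 WT arrays and 8.14, 5.25 and 7.14 in the 3 KO arrays. Its low values were those of the same 2 arrays, with a difference of -4.26 between the WT one and the mean of its group's others. Grm3 went the other way and was the highest of its group in both arrays. The WT array also held the highest scores of choroid plexus and ependyma (2.83) and of myelin genes (2.22). KO replicate 2 held the highest scores of microglia and macrophages (1.47) and of astrocytes (0.69) of all 18 arrays. Member differences that rest on the 6 week arrays are therefore also given without these 2, an alternative chosen after the values were seen.

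**Figure D1:**
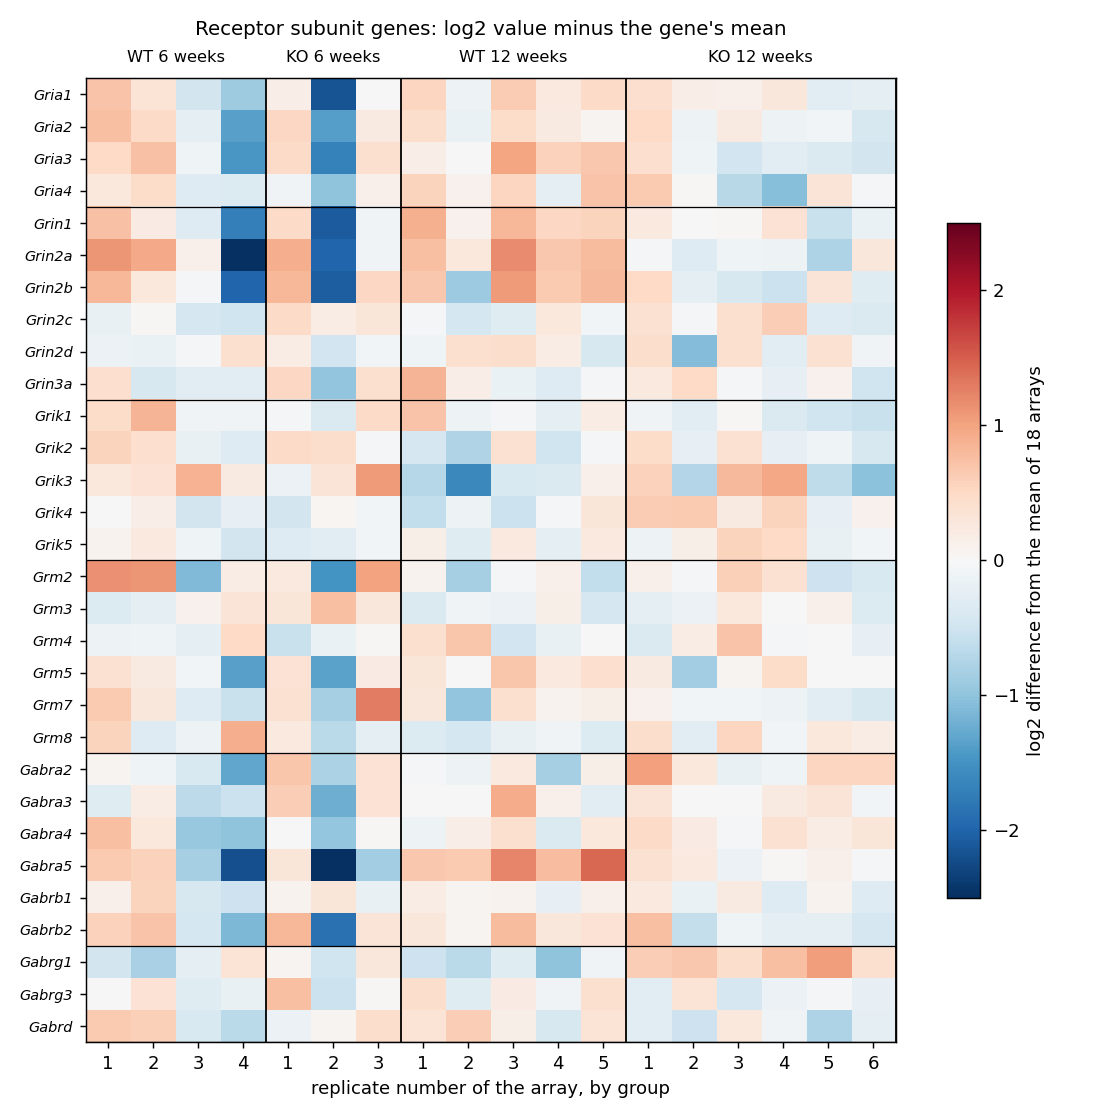
Each cell is the log2 value of 1 of the 30 receptor subunit genes (rows, grouped by receptor family) on 1 of 18 arrays (columns, by group and replicate number), minus that gene's mean over all arrays. The columns of WT replicate 4 and KO replicate 2 at 6 weeks are mostly blue. In these, 20 and 22 of 30 genes had the lowest value of their groups of 4 and 3 arrays. The Gabrg1 row is red in all 6 KO arrays at 12 weeks.

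As a mean score over all 30 members, KO and WT differed by less than their spread at both stages. The score was -0.076 ± 0.478 (SD, n = 4) in WT and -0.12 ± 0.63 (n = 3) in KO at 6 weeks, and 0.11 ± 0.19 (n = 5) in WT and 0.021 ± 0.168 (n = 6) in KO at 12 weeks. The KO minus WT difference was -0.047 at 6 weeks and -0.088 at 12 weeks, both smaller than the SD of either group compared. Without the 2 arrays that stood apart, the 6 week difference was 0.13. The stage difference in KO, 12 minus 6 weeks, was 0.14 with all arrays and -0.22 without them, and the one in WT was 0.19 and -0.0075. The direction of the KO stage difference thus turned with 1 array, KO replicate 2. The families did not all follow this mean. At 12 weeks the AMPA score was 0.34 ± 0.27 in WT and -0.063 ± 0.297 in KO, a difference of -0.41, and the NMDA score was 0.31 ± 0.23 and -0.035 ± 0.187, a difference of -0.345. Both differences were larger than the SD of either group, although the ranges of the groups overlapped. The differences of the other families were 0.22 (kainate), 0.058 (metabotropic), -0.14 (GABA-A alpha and beta) and 0.15 (GABA-A gamma and delta), none larger than both SDs. At 6 weeks the AMPA difference was -0.31, or -0.033 without the 2 arrays, and the NMDA difference was 0.036, or 0.22. In bulk tissue, fewer neurons and less RNA per neuron cannot be told apart.

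Against the pan-neuronal marker score, the member score had Pearson's r = 0.93 over 18 arrays and 0.77 over the 16 without the 2 arrays (a description across arrays of 4 groups, which share the normalization). After group means were removed, r over the 16 arrays was 0.85. Single members differed widely. Gria1 stood highest, with r = 0.94 over 18 arrays and 0.86 over 16, followed over 18 by Grin1 (0.92) and Gria2 (0.91). Grm3 was lowest, at -0.68 and -0.31, and Gabrg1 read -0.084 and -0.31. Over the 16 arrays, 13 of 30 members had r above 0.5 with neuronal markers, while 11 had r below -0.5 with the astrocyte marker score and 1, Gabrg1, had r above 0.5 with it. With the microglia and macrophage score 12 had r below -0.5 and 1, again Gabrg1, had r above 0.5.

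**Figure D2:**
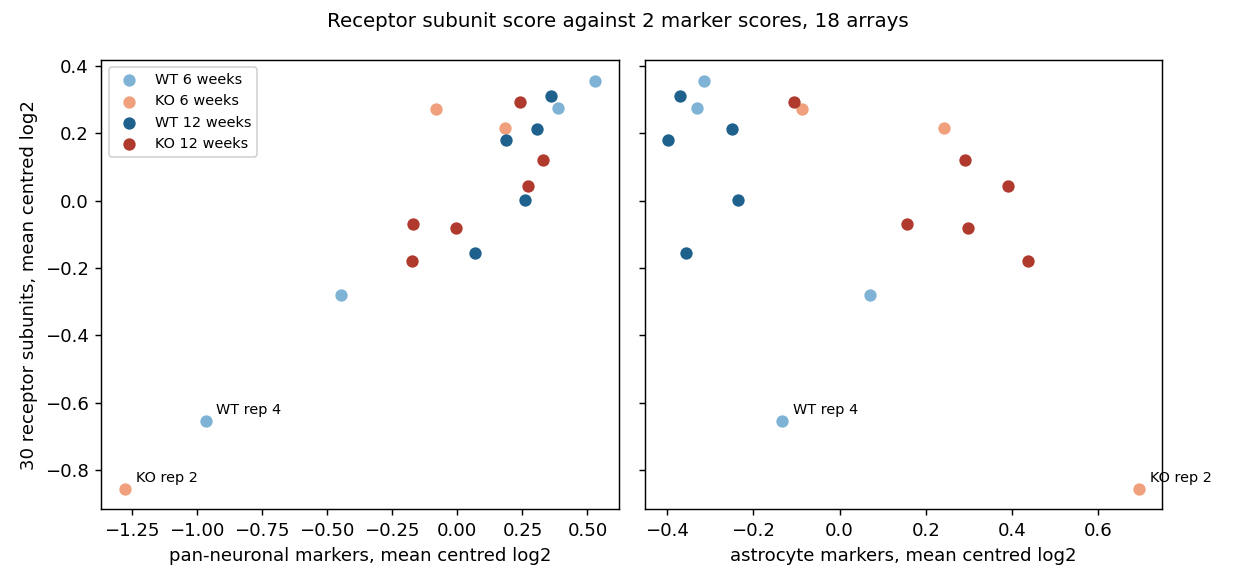
Each point is 1 of 18 arrays, with the mean centred log2 score of the 30 receptor subunits on the vertical axis, set against the pan-neuronal marker score (left) and the astrocyte marker score (right); colours mark the 4 groups. The member score rises with the neuronal score (r = 0.93), and WT replicate 4 and KO replicate 2 at 6 weeks lie at the lower left of that plot.

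**Figure D3:**
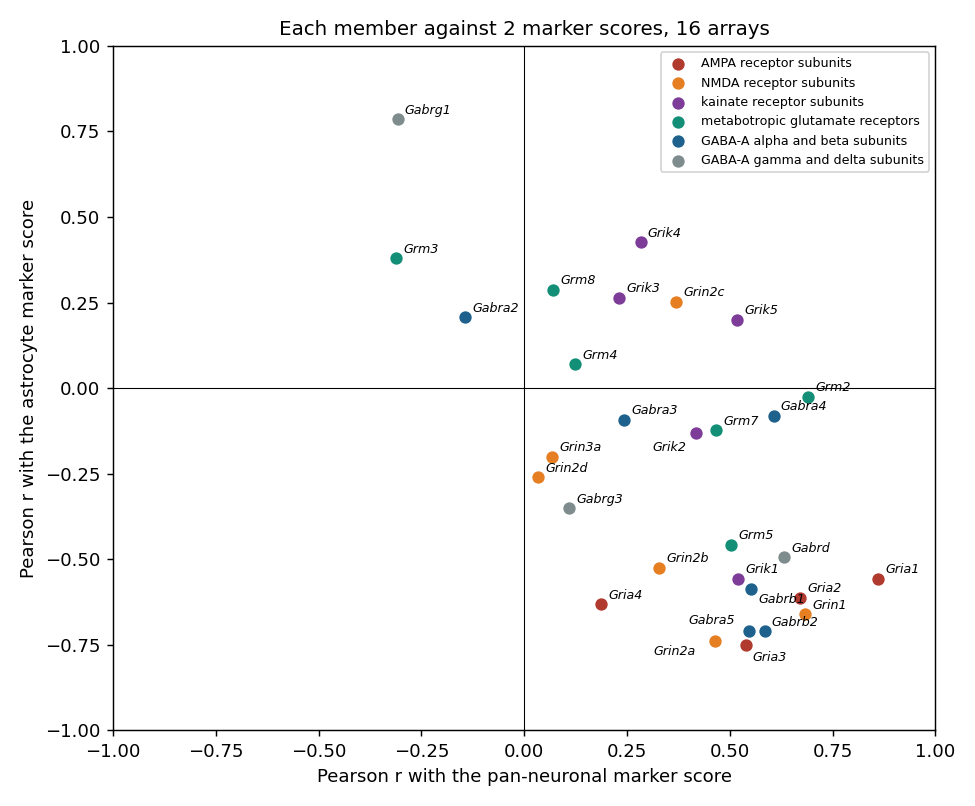
Each point is 1 receptor subunit gene, placed by its Pearson r with the pan-neuronal marker score (horizontal) and with the astrocyte marker score (vertical) over the 16 arrays without the 2 that stood apart; colours mark receptor families. The AMPA subunits lie at the lower right; Gabrg1, Grm3 and Gabra2 lie at the upper left, with Gabrg1 the highest of all (r = -0.31 and 0.79).

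For KO against WT at 12 weeks, 1 of the 30 members passed the test: Gabrg1, the gamma-1 subunit of the GABA-A receptor, rose. Its values were 6.12, 5.95, 6.33, 5.63 and 6.54 in the 5 WT arrays and 7.25, 7.31, 7.07, 7.38, 7.68 and 7.03 in the 6 KO arrays. Every KO array lay above every WT array, as for 1.7% of all genes. The mean was 6.11 ± 0.35 (SD, n = 5) in WT and 7.29 ± 0.24 (n = 6) in KO, a log2 difference of 1.17 ± 0.21 (SE) or 2.25-fold (limma, adjusted p = 0.0256, 95% interval 0.72 to 1.62). An exact permutation test over the arrays, two-sided, gave p = 0.002165, the smallest that 462 arrangements allow. Over all 16281 genes tested, 0.356% passed in the higher direction, 0.0737% in the lower and 0.43% in either. Of 18 limma fits that each left out a single array, 14 kept the call. Among these are all fits without a 6 week array, which cannot change the 12 week difference (1.17 in each). The fits that lost the call left out a 12 week array: WT replicate 1 (adjusted p = 0.0652), WT replicate 4 (0.0874), KO replicate 2 (0.0525) or KO replicate 5 (0.0552). Their log2 differences were 1.05 to 1.17. The 70 genes called in all became 15 to 31 without any single 12 week array other than WT replicate 2 (51) or KO replicate 1 (72). They became 121 without WT replicate 4 of 6 weeks and 126 without KO replicate 2 of 6 weeks.

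The probe sets of Gabrg1 mostly moved together at 12 weeks. Of its 12 probe sets, 11 were higher in KO on average, with a median difference of 1.32 and a range of -0.34 to 2.13, and 5 had no overlap between the groups. At 6 weeks 6 of 12 were higher. In the 6 week arrays Gabrg1 read 6.17, 5.82, 6.40 and 6.97 in WT and 6.70, 6.14 and 6.92 in KO. These overlap, and the difference was 0.25 ± 0.27 (adjusted p = 0.999). Without the 2 arrays that stood apart it was 0.68 ± 0.27. Between the stages Gabrg1 was 0.70 ± 0.25 higher at 12 weeks in KO, with no overlap, as for 2.28% of all genes. The limma test did not call it after adjustment over all genes (adjusted p = 0.560, unadjusted p = 0.0116). The exact permutation test of this gene alone, also unadjusted, gave p = 0.0119. That is the smallest that 84 arrangements allow. Grm3, also without overlap in this comparison, gave p = 0.0238 in the same permutation test. The KO stage difference was 0.47 ± 0.24 without the 2 arrays. The KO stage comparison shares its 6 KO arrays with the genotype comparison at 12 weeks. In WT the stage difference was -0.23 ± 0.24 with them and -0.016 ± 0.219 without. The interaction, the genotype difference at 12 weeks minus that at 6 weeks, was 0.92 ± 0.34 and did not pass (limma, adjusted p = 0.898), so the larger difference at 12 weeks was not shown to differ from that at 6 weeks. It was 0.49 ± 0.33 without the 2 arrays.

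On average, scores of astrocyte, microglial and choroid plexus markers were also higher in KO at 12 weeks. The astrocyte score ran from -0.40 to -0.24 in WT and from -0.11 to 0.44 in KO, with no overlap. Of the 10 astrocyte markers, 9 were higher in KO, with a median log2 difference of 0.60, and 1 passed, the bicarbonate transporter Slc4a4 (1.01, adjusted p = 0.0104). The microglia and macrophage score ran from -0.76 to -0.37 in WT and from 0.063 to 0.72 in KO, again with no overlap, with 8 of 9 genes higher and 3 passing. All 9 markers of choroid plexus and ependyma were above 0, with a median of 1.02 and none passing, and their score ran from -1.30 to -0.19 in WT and from -0.45 to 1.58 in KO. KO replicates 5 and 6 read 1.58 and 1.38, and the other KO arrays -0.45 to 0.15. The median score was -0.0085 in KO and -0.62 in WT. At 6 weeks the microglial score was 1.13 higher in KO, also with no overlap (0.69 higher without the 2 arrays), beside the Gabrg1 differences of 0.25 and 0.68 given above.

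Gabrg1 did not track 1 of these scores alone. Over the 16 arrays it had r = 0.84 with the microglial score, 0.79 with the astrocyte score and 0.61 with the choroid plexus score, and 0.19, 0.11 and 0.16 once group means were removed. Over all 18 arrays r was 0.49, 0.53 and 0.53. With the astrocyte score as a covariate, a fit chosen after the values were seen, the Gabrg1 difference was 1.33 and no longer passed (adjusted p = 0.152). That fit moved the other members too: 27 of 30 were above 0 at 12 weeks, with a median of 0.60, against 48.5% of all genes and a median of -0.014. At 12 weeks the astrocyte scores of WT and KO did not overlap. The fit therefore had to extrapolate there, and cannot decide whether these differences depend on astrocytes. With the pan-neuronal score as a covariate the Gabrg1 difference was 1.16 (adjusted p = 0.0151), and 13 of 30 members were above 0, beside 52.4% of all genes. The part of microglia or choroid plexus in the Gabrg1 result was not tested.

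Gabrg1 lies on chromosome 5 in a run of GABA-A subunit genes that the RefSeq annotation orders Gabrg1, Gabra2, Gabra4 and Gabrb1. The 3 neighbours did not pass at 12 weeks. Gabra2, an alpha subunit, read 6.90, 6.82, 7.18, 6.12 and 7.09 in WT and 7.97, 7.22, 6.75, 6.84, 7.49 and 7.48 in KO. The groups overlapped, and the difference was 0.47 ± 0.30 (adjusted p = 0.581), although all 10 of its probe sets were higher in KO on average. The differences of Gabra4 and Gabrb1 were 0.18 ± 0.28 and -0.095 ± 0.190. The promoters of Gabrg1 and Gabra2, which follow each other in this run, are shown because the first gene passed and the second did not. Each sequence covers 250 bases before to 50 after the start, with every CG dinucleotide in capitals.
Gabrg1: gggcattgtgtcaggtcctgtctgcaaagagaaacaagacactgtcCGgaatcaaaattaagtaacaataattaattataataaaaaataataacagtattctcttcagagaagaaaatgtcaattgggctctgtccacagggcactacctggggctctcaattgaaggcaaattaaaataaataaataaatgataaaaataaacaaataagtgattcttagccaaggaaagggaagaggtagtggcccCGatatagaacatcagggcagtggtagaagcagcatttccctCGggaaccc
Gabra2: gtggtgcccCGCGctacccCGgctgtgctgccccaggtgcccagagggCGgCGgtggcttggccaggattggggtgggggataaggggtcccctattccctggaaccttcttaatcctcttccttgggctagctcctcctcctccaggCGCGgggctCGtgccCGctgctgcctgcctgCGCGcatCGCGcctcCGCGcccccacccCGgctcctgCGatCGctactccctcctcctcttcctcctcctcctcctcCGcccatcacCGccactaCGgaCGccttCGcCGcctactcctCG
Both come from RefSeq on GRCm38.p6 and are written on the minus strand, Gabrg1 at chr5:70842568-70842867 and Gabra2 at chr5:71095800-71096099. The Gabrg1 window held 3 CG and 38.3% G or C, and 31.4% of the 32851 windows of the same length held no more CG. The Gabra2 window held 25 CG and 70.0% G or C, and 83.1% of windows held no more CG. CG reads the same on both strands, and these counts describe the windows only. RefSeq windows were matched for 21 of the 30 members (28 windows), with a median of 12.5 CG against 7 over all windows.

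**Figure D4:**
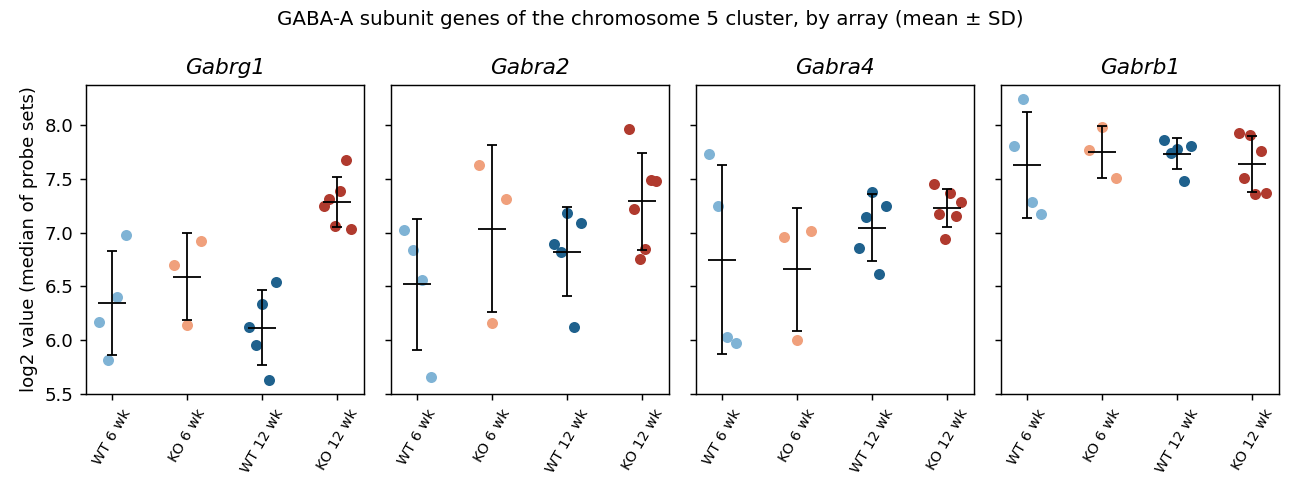
Log2 values per array (points) with mean and SD (bars) for the 4 GABA-A subunit genes of the chromosome 5 cluster, by genotype and stage. The 6 KO arrays at 12 weeks lie at 7.03 to 7.68 for Gabrg1, above all 5 WT arrays (5.63 to 6.54), while the groups overlap for Gabra2, Gabra4 and Gabrb1.

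The other 29 members did not pass at 12 weeks. Across all 30, 11 differences were above 0 and the median was -0.11, beside 52.4% above 0 and a median of 0.017 over all genes. With the astrocyte covariate 27 of 30 were above 0. Because the astrocyte scores of the genotypes did not overlap at 12 weeks, that fit cannot decide the direction. All 4 AMPA subunits were below 0 in KO, from -0.69 (Gria3) to -0.20 (Gria2), and so were 5 of 6 NMDA subunits, from -0.92 (Grin2a) to -0.086 (Grin3a), with Grin2c at 0.23. Of the kainate subunits 4 of 5 were above 0, and of the metabotropic receptors 3 of 6. Gabra5 (chromosome 7), an alpha subunit concentrated in the hippocampus, read 9.14, 9.11, 9.68, 9.23 and 9.88 in WT and 8.83, 8.69, 8.30, 8.48, 8.59 and 8.41 in KO. The KO arrays all lay below the WT arrays, as they did for 0.762% of all genes, yet the difference of -0.86 ± 0.48 did not pass (adjusted p = 0.523). Its shared spread included the 6 week arrays, where Gabra5 ran from 5.51 to 9.12. In a fit on the 11 arrays of 12 weeks alone, Gabra5 (-0.86, adjusted p = 0.0273) and Grin2a (-0.92, adjusted p = 0.0357) fell and 3 of 30 members passed, beside 233 genes of all tested against 70. Without the 2 arrays that stood apart, the adjusted p of these genes was 0.135 and 0.0636.

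Grik4 (chromosome 9), a high-affinity kainate subunit, had the smallest p of its family. It read 4.33, 4.81, 4.40, 4.90 and 5.24 in WT and 5.58, 5.59, 5.16, 5.50, 4.72 and 5.04 in KO at 12 weeks. The ranges overlapped, and the difference of 0.53 ± 0.20 did not pass (adjusted p = 0.331; exact permutation p = 0.0455 for this gene alone). At 6 weeks the Grik4 difference was -0.037 ± 0.256, and its interaction was 0.57 ± 0.33 (adjusted p = 0.957); without the 2 arrays these were -0.17 ± 0.31 and 0.70 ± 0.38.

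For KO against WT at 6 weeks no member passed, against 0.043% of all genes (7 genes). Leaving out WT replicates 1, 2 and 3 of that stage one at a time gave 0, 2 and 11 genes, and leaving out KO replicates 2 and 3 gave 1 and 4. Of the 30 members, 2 had an unadjusted p under 0.05, as had 5.44% of all genes. Differences above 0 numbered 12 of 30 (all genes 49.6%), and 15 of 30 without the 2 arrays that stood apart (all genes 49.4%). With the astrocyte score as a covariate 25 of 30 were above 0 (median 0.56), beside 48.1% of all genes. KO replicate 2 had the highest astrocyte score (0.69) and the lowest member score (-0.85) of all 18 arrays. How far the count of 25 rests on that array was not tested. With the pan-neuronal covariate 21 of 30 were above 0, beside 50% of all genes. Grin2c (chromosome 11), an NMDA subunit best known from the cerebellum and from astrocytes, read 5.35, 5.57, 5.11 and 5.04 in WT and 6.01, 5.73 and 5.83 in KO. Each KO array was higher than each WT array, as for 2.71% of all genes; no member was lower without overlap (2.36% of all genes). The difference was 0.59 ± 0.24 (adjusted p = 0.834; exact permutation p = 0.0571, where the smallest possible is 0.0286), and at 12 weeks it was 0.23 ± 0.19 with overlapping groups. Without the 2 arrays that stood apart the 6 week value was 0.58 ± 0.30.

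Grm3 (chromosome 5), a metabotropic receptor of group II that astrocytes also carry, read 7.64, 7.77, 8.11 and 8.31 in WT and 8.30, 8.74 and 8.27 in KO at 6 weeks. The highest WT array overlapped the KO arrays, and the difference was 0.48 ± 0.21 (adjusted p = 0.860), or 0.44 ± 0.24 without the 2 arrays. All 8 of its probe sets were higher in KO on average. Grm8 (chromosome 6), a presynaptic metabotropic receptor, read 4.98, 4.10, 4.31 and 5.33 in WT and 4.66, 3.75 and 4.21 in KO. Its difference was -0.47 ± 0.28 (adjusted p = 0.971) and -0.026 ± 0.283 without the 2 arrays, and it was 0.23, of the opposite sign, for the brightest of its probe sets. Of its 15 probe sets, 6 were above 0.

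**Figure D5:**
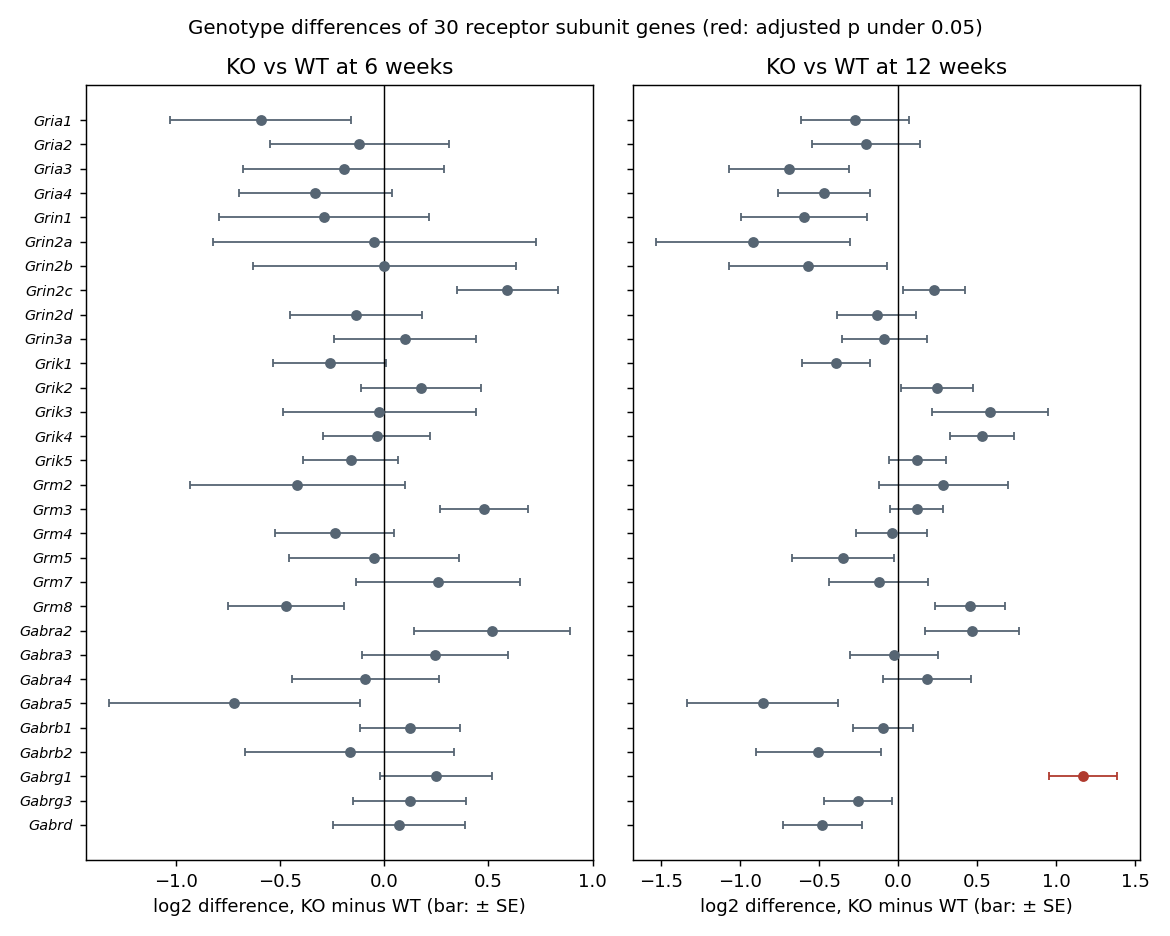
Log2 difference KO minus WT for each of the 30 receptor subunit genes at 6 weeks (left) and 12 weeks (right), with bars of ± SE from the fit over 18 arrays; red marks an adjusted p under 0.05. Gabrg1 at 12 weeks (1.17) is the 1 red point, and the 4 AMPA subunits lie below 0 at both stages.

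Between 6 and 12 weeks no member passed in WT (0.0184% of all genes passed) or in KO (0.00614%); 3 of 30 had an unadjusted p under 0.05 in each, beside 8.48% and 7.49% of all genes. In WT 21 of 30 members were higher at 12 weeks, and in KO 21 of 30, where all genes had 51.2% and 52.2%. Without the 2 arrays these counts were 17 and 9, beside 51.2% and 53.3% of all genes. With all arrays, Gabra5 had the stage difference of largest size in both genotypes; without the 2 arrays that stood apart it was Grik3 in WT (-1.09) and Grm7, a presynaptic metabotropic receptor, in KO (-0.96 ± 0.33, adjusted p = 0.478). In WT Gabra5 read 9.12, 9.02, 7.62 and 6.27 at 6 weeks against 9.11 to 9.88 at 12 weeks. The 6 week arrays spread over a wide range whose top met the 12 week values, and the difference was 1.40 ± 0.53 (adjusted p = 0.499), or 0.82 ± 0.32 (adjusted p = 0.573) without the 2 arrays. In KO Gabra5 read 8.76, 5.51 and 7.59 at 6 weeks against 8.30 to 8.83 at 12 weeks, with a difference of 1.26 ± 0.56 (adjusted p = 0.645). That became 0.38 ± 0.35 without the 2 arrays.

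Grik3 (chromosome 4), a kainate subunit, read 5.41, 5.52, 6.03 and 5.38 in WT at 6 weeks and 4.44, 3.54, 4.78, 4.78 and 5.28 at 12 weeks. The 12 week WT arrays were all lower, as for 1.31% of all genes, and no member was higher without overlap (1.19%). The difference of -1.02 ± 0.41 did not pass (adjusted p = 0.507; exact permutation p = 0.0159), and in KO, where the groups overlapped, it was -0.42 ± 0.43. These were -1.09 ± 0.46 and -0.46 ± 0.51 without the 2 arrays. Grm3 in KO read 8.30, 8.74 and 8.27 at 6 weeks and 7.75, 7.84, 8.25, 8.003, 8.12 and 7.65 at 12 weeks. All 6 lay below the 3, as for 1.62% of all genes, with 8.25 and 8.27 as the nearest values. The difference was -0.50 ± 0.20 (adjusted p = 0.605), and -0.35 ± 0.21 without the 2 arrays. Grm8 in WT read 4.08, 3.99, 4.25, 4.33 and 4.09 at 12 weeks, within the range of the 6 week arrays or just below it. Its stage difference was -0.53 ± 0.24 in WT (adjusted p = 0.568) and 0.39 ± 0.26 in KO, where the 12 week arrays ran from 4.14 over a median of 4.65 to 4.96. Both were smaller without the 2 arrays, at -0.32 ± 0.23 and 0.17 ± 0.25.

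Gria1 (chromosome 11), the AMPA subunit that followed neuronal markers most closely, had the smallest p of its family in KO between the stages. It read 9.08, 6.77 and 8.93 at 6 weeks and 9.34, 9.08, 9.06, 9.21, 8.67 and 8.71 at 12 weeks. The 6.77 was KO replicate 2, and the other values overlapped. The difference was 0.75 ± 0.40 (adjusted p = 0.691; exact permutation p = 0.179) and 0.006 ± 0.278 without the 2 arrays.

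For the interaction of genotype and stage no gene passed in limma (845 genes, 5.19%, had an unadjusted p under 0.05), and 2 of 30 members, Gabrg1 and Grm8, had an unadjusted p under 0.05. The Grm8 interaction was 0.93 ± 0.36 (adjusted p = 0.905), and 0.48 ± 0.34 without the 2 arrays that stood apart, when no member had an unadjusted p under 0.05. Of all members 11 of 30 were above 0 (52.1% of all genes), with a range from -0.87 (Grin2a) to 0.93 (Grm8).

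Other genes of the same pathways gave no call in any of the 5 comparisons. Further receptor subunits (6 genes tested, among them the GABA-B subunits Gabbr1 and Gabbr2) had no member passing, and at 12 weeks all 6 were below 0 in KO, with a median of -0.27. Of 21 auxiliary subunits and scaffolds none passed. Homer1, a scaffold at glutamate synapses, had a log2 difference of -0.99 ± 0.29 in KO at 12 weeks (adjusted p = 0.178), and Cacng5, an auxiliary subunit of AMPA receptors, 0.83 ± 0.24 (adjusted p = 0.172). Of 12 genes of transmitter synthesis and transport none passed. The one nearest the threshold was Slc1a2, the main glutamate transporter of astrocytes, at 1.11 ± 0.21 in KO at 6 weeks (adjusted p = 0.0742), and Gad2, an enzyme of GABA synthesis, had an interaction of 1.04 ± 0.31 (adjusted p = 0.780). The 11 pan-neuronal markers gave no call, with 0 of 11 above 0 in KO against WT at 6 weeks (median -0.25) and 3 of 11 at 12 weeks (median -0.19). Between the stages 11 of 11 were above 0 at 12 weeks in WT (median 0.38) and 10 of 11 in KO (median 0.39). Without the 2 arrays the score difference went from -0.27 to -0.11 for KO against WT at 6 weeks, from 0.36 to 0.080 between the stages in WT and from 0.47 to 0.032 in KO. Among 11 markers of cortical and hippocampal excitatory neurons, 9 were above 0 at 12 against 6 weeks in WT (median 0.45). Their score difference was 0.25, and -0.061 without the 2 arrays. Prox1, a transcription factor of dentate granule cells, went against most of this list. It fell between 6 and 12 weeks in WT, with a log2 difference of -2.07 ± 0.29 (adjusted p = 0.0120).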

How the data were processed

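RNA of the caudal corpus callosum was amplified with a whole-transcript kit, labelled with biotin and hybridised to 18 one-colour arrays, per the labels' protocols. The authors deposited log2 values for 241576 probe sets; background correction, normalization, summary and genome build are not given in the sources used here, and array background levels are not analysed here. Probe sets with 1 gene symbol in the platform annotation (212097, against 4475 with several and 25004 with none) were kept, 2742 symbols were updated through the RefSeq table of GRCm38.p6, and a gene's value is the median of its probe sets.

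One limma fit (version 3.58.1, R 4.3.3) of 4 group means over 18 arrays gave 5 comparisons, 14 residual degrees of freedom and a prior of 5.61. Genes under a mean log2 value of 3.41, the lowest 20%, were left out, and p-values were adjusted over 16281 genes by Benjamini-Hochberg with a threshold of 0.05. Exact permutation tests over arrays are two-sided and unadjusted over the 12 gene comparisons run. The number of arrays limits the precision. The fit was tested on simulated data.

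Members with all array values are those passing in a comparison, the 3 of smallest p where none passed, and the member of smallest p in each family; Grin2a, Gabra2, Gabra4, Gabrb1 and other single values were added after the values were seen. The members and lists were chosen with earlier results of these data known. Of 147 genes on the marker and pathway lists, 135 were measured; the others are not analysed here. Alternatives changed the filter, the normalization (quantile), the summary of probe sets, limma's variance and array weights, the arrays fitted, a sex term read from the arrays, a replicate block and each single array. Of these fits 3 were chosen after seeing the data: with a neuronal score as a covariate, with an astrocyte score, and lacking the 2 lowest-weighted arrays.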

Additional observations from a re-analysis of the deposited data

Results flagged for a closer look

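Values within the groups of 4 or more arrays were tested 93 times, for the 30 members and their mean score. In 4 of these tests, each of a member, 1 array lay far from the rest of its group by Dixon's criterion, which chance alone meets in about 1 in 20 groups. In WT replicate 2 at 12 weeks, Grin2b, an NMDA subunit, read 6.61 where the next lowest array read 8.16, and Grm7, a presynaptic metabotropic receptor, read 5.59 where the next lowest read 6.66. In KO replicate 2 at 12 weeks, Grm5, a metabotropic receptor of group I, read 6.74 with the next at 7.60. In KO replicate 1 at 12 weeks, Gabrb2, a beta subunit of the GABA-A receptor, read 8.62 with the next at 7.76.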

How the results depend on the processing

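At 12 weeks 1 member passed for KO against WT; 3 passed with the arrays of that stage alone, 0 with the astrocyte marker score as a covariate, and 0 to 1 with each array left out in turn. Gabrg1 kept its direction in all 31 alternatives (1.05 to 1.71, adjusted p 0.00287 to 0.152). No member passed in the other 4 comparisons under any alternative run. Over all genes, the 70 calls at 12 weeks became 233 with the arrays of that stage alone. They became 190 with array weights, 107 with the mean of probe sets and 215 without the 2 arrays of lowest weight. With the neuronal and astrocyte covariates they became 125 and 8, and with each array left out they ran from 15 to 126. The 7 calls at 6 weeks became 0 with the arrays of that stage alone and with the replicate block, 1 with the astrocyte covariate and 0 to 11 with each array left out. Over all alternatives, calls between the stages ran from 1 to 10 in WT and from 0 to 5 in KO. With the astrocyte covariate, 27 of 30 member differences at 12 weeks were above 0, where 11 were without it. Astrocyte scores did not overlap between the genotypes at that stage, so this count cannot decide the direction.

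With the replicate number as a block, Gabrg1 differed by 1.22 (adjusted p = 0.0316), 1 member passed and 10 genes in all. Same-numbered arrays did not deviate together (correlations of 0.24, -0.36 and -0.20 at 6 weeks, 0.025 to 0.099 at 12 weeks), so the numbers do not show a pairing. The block was not run for the stage comparisons, because numbers were blocked within each stage.

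The member score moved most without KO replicate 2 at 6 weeks. Leaving out each array, it ran from -0.24 to 0.32 for KO against WT at 6 weeks, from -0.22 to 0.34 for 12 against 6 weeks in KO and from -0.41 to 0.16 for the interaction. The KO stage difference was -0.22 without the 2 arrays of lowest weight. Grm8 at 6 weeks turned to 0.23 with its brightest probe set (adjusted p = 0.999). Signal over background is not known here.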
